A study of Mus musculus with 6 samples.

Results

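The chemokines and their receptors were followed through mammary epithelial cells of pregnant mice whose floxed insulin receptor gene was, or was not, exposed to Cre recombinase. Members were the probe sets of the authors' comparison table that name 1 gene and whose symbol is that of a chemokine ligand (Ccl, Cxcl, Cx3cl1, Xcl1, Pf4, Ppbp) or receptor (Ccr, Cxcr, Cx3cr1, Xcr1 and Darc). This gave 54 of 28853 probe sets, for 53 genes, of which 34 encode ligands, 17 encode signalling receptors and 2 encode atypical receptors. The rule used names and no measured value, and 13 further chemokine probe sets that name several genes were not members. Where a gene had more than 1 probe set, as Ccl25 did, the probe set with the highest mean stands for it in the counts.

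Chemokines are small secreted proteins that bind to sugar chains on cell surfaces and guide leukocytes towards their source. They are classed by the spacing of their first cysteines into CC, CXC, C and CX3C types, and they act on G protein-coupled receptors named after the same classes. Atypical receptors bind chemokines without that signal and take them up. In the mammary gland, chemokines made by epithelium, stroma and macrophages draw in macrophages and eosinophils during ductal growth, and plasma cells around lactation.

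All 6 mice carried the floxed insulin receptor gene (IRfl/fl). The IRfl/fl Cre+ mice, numbered 5, 6 and 7, also carried Cre recombinase driven by the promoter of beta-lactoglobulin (BLG), a milk protein gene, and the IRfl/fl Cre- mice, numbered 1, 2 and 4, did not. A milk protein promoter is active in secretory alveolar cells, so other cell types of the gland need not have lost the receptor. Females of both kinds had been mated with CD1 males and were killed on day 13.5 of pregnancy, and RNA from collagenase-isolated mammary epithelial cells of each mouse was read on 1 Affymetrix MoGene 1.0 ST array. The labels give no age, litter or batch.

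Array medians lay between 28.4 and 29.3 intensity units. The targeted gene, Insr, read 55.2, 47.7 and 71.2 on Cre+ arrays 5, 6 and 7, against 106, 104 and 122 on Cre- arrays 1, 2 and 4, and fell by 0.95 on the log2 scale (limma adjusted p = 0.0231). A second Insr probe set fell by 0.52 (adjusted p = 0.0285). Keratin and other luminal epithelial markers were well measured in both groups, with a summed intensity of 5269 to 6293 in Cre+ mice and 5995 to 8933 in Cre- mice, but the preparations also held genes of other cells. Arrays Cre+ 7 and Cre- 1 stood apart from the rest. On the second principal component of the tested probe sets they scored 13.7 and 21.1, against -14.6 to -3.06 for the other arrays. They carried the highest sums of 20 T, B and NK lymphocyte markers (1345 and 2195, against 535 to 776 on the other arrays). Their endothelial marker sums were also the highest (998 and 985, against 568 to 807). So were their macrophage and dendritic cell marker sums (2208 and 2065, against 1188 to 1921). Values without this pair are given beside the results that these arrays bear on. The pair was picked on these same data, and leaving it out leaves 2 arrays in each group, so a pass there is weak support.

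Of the 53 genes, 39 had a mean log2 intensity above 4.48 (22.4 units), the level set for testing, and 14 did not. Tested by class were 16 of 18 CC ligands, 11 of 14 CXC ligands, both of the C and CX3C ligands, 8 of 17 receptors and both atypical receptors. The 14 dim genes stayed between 20.3 and 23.3 units on every array, near the floor of the deposited values (18.7), and their log2 changes lay between -0.06 and 0.04. They were Ccl26 and Ccl28 among CC ligands, Cxcl2, Cxcl5 and Cxcl11 among CXC ligands, and the receptors Ccr1, Ccr1l1, Ccr3, Ccr4, Ccr8, Ccr9, Cxcr1, Cxcr2 and Xcr1. Ccl28, which draws antibody-producing plasma cells to the lactating gland, read 22.1 to 23.2 units in Cre+ mice and 21.8 to 22.5 in Cre- mice, so a difference in it was not detectable on these arrays.

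**Figure D1:**
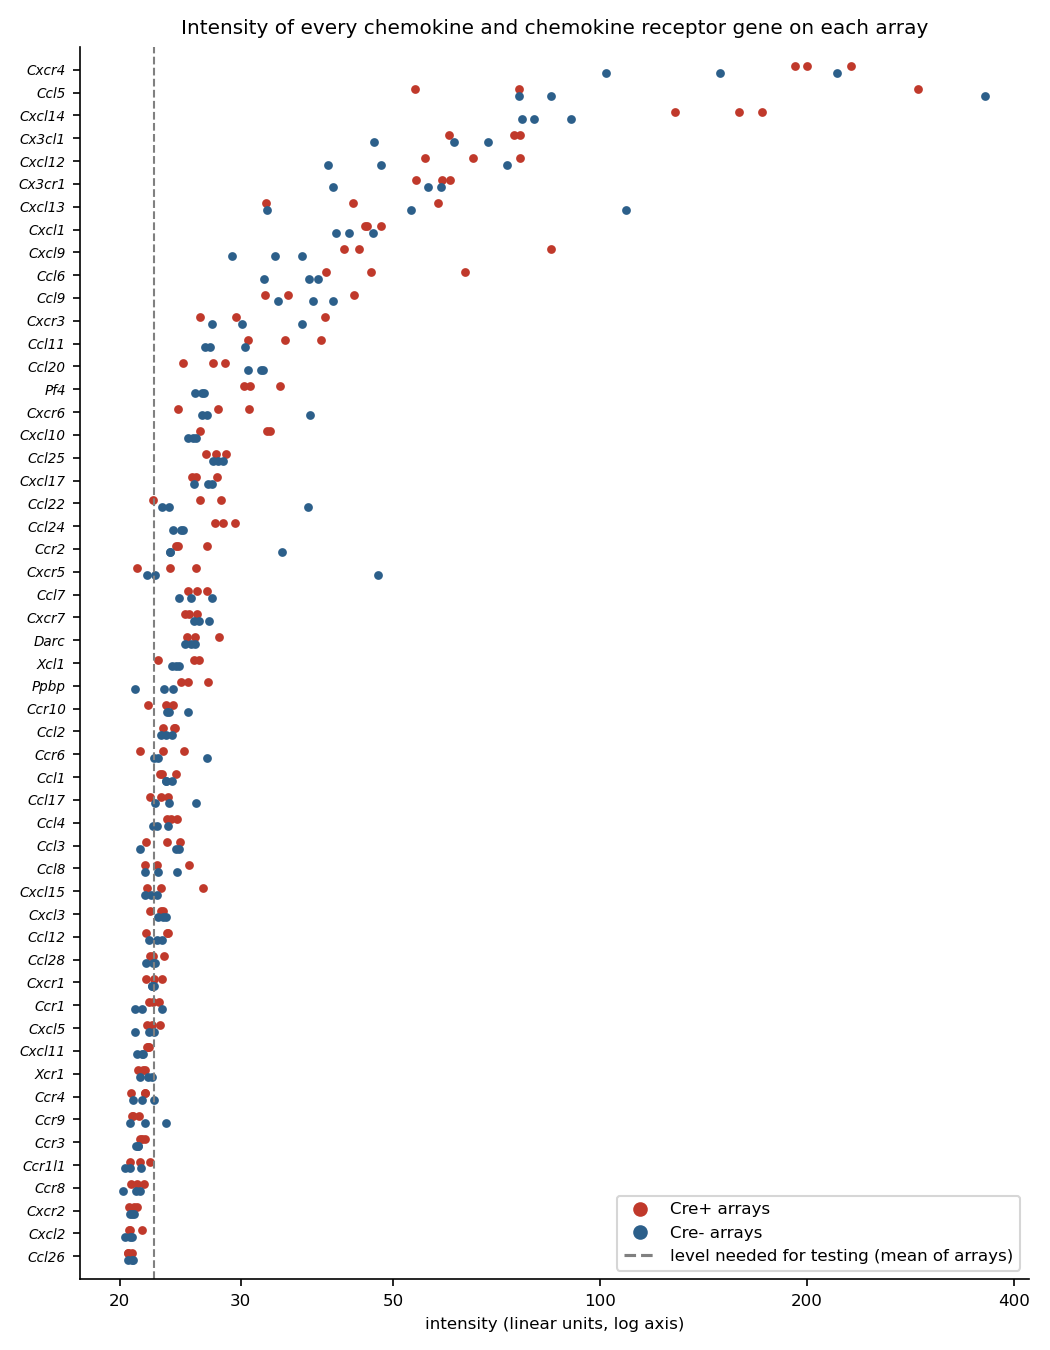
Intensity of each of the 53 genes on each array (linear units on a log axis), with Cre+ arrays as red points above Cre- arrays as blue points. Probe sets differ in brightness for technical reasons, so only points within a line can be compared. Most genes lie between 20 and 30 units, Cxcl14 has all red points to the right of all blue points, and Ccl5 and Cxcl13 spread widest.

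Among the tested genes, 3 rose in Cre+ mice past the threshold of limma adjusted p under 0.05, all of them ligands: Cxcl14, Ccl24 and Pf4. None fell. That is 7.69% of the 39 genes, against 4.17% of all 16921 tested probe sets, of which 2.03% rose and 2.14% fell. In 9 of the 39 genes (23.1%) all 3 Cre+ arrays lay on one side of all 3 Cre- arrays, against 25.7% of all tested probe sets, so the family as a whole did not separate the groups more often than other genes. Of the 9, Cxcl14, Cxcl9, Ccl6, Ccl11, Pf4, Cxcl10, Ccl24 and Ppbp lay above in Cre+ (20.5%, against 12.9% of all tested probe sets), and Ccl20 alone lay below (against 12.7%). All 9 were ligands, as were 29 of the 39 tested genes. Changes above 0 were seen in 22 of the 39 (56.4%, against 51.6% of all tested probe sets). The median log2 change was 0.02 over the 39 genes, 0.17 over the 11 CXC ligands and 0.01 over the 16 CC ligands, against 0.0037 over all tested probe sets. In RNA from a mixed preparation, fewer cells of a type and less RNA per cell cannot be told apart, which holds for every level below.

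**Figure D2:**
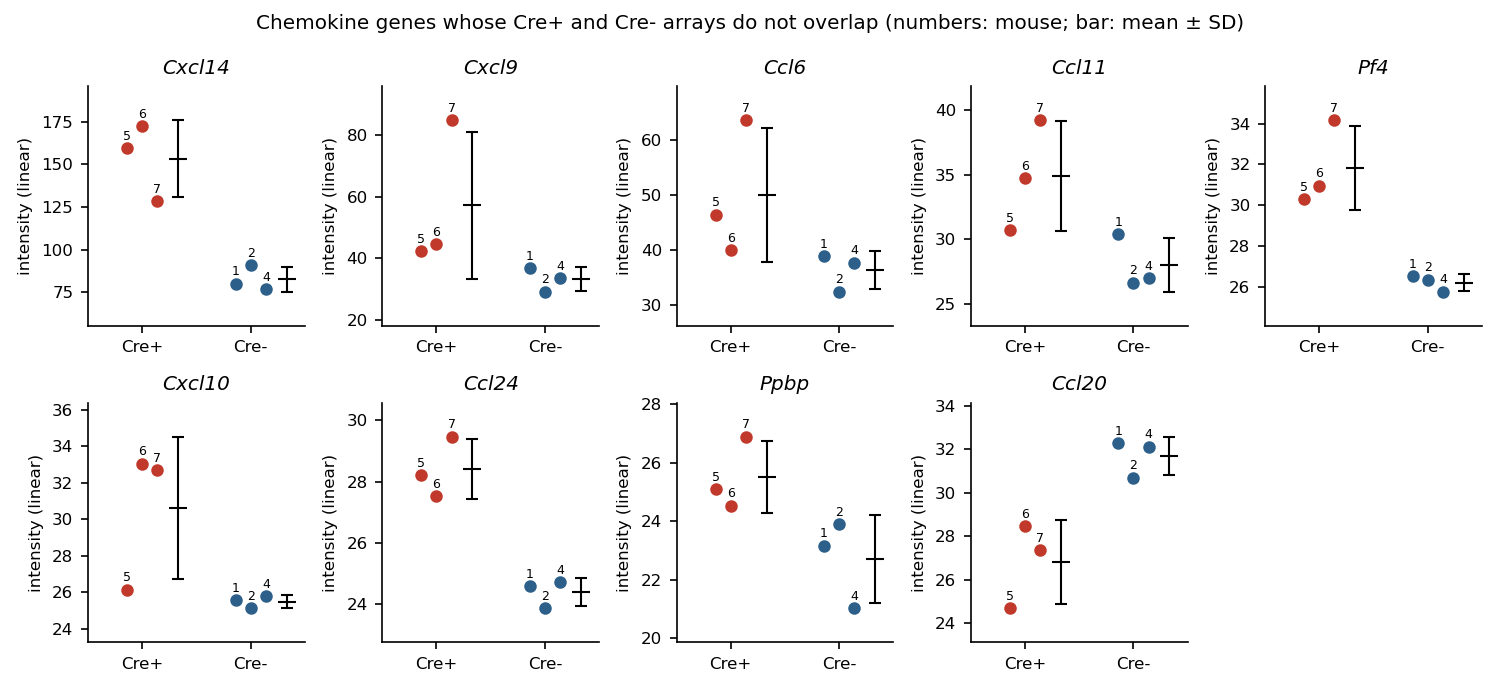
Intensity (linear units) of the 9 tested chemokine genes whose groups did not overlap, with each mouse as a numbered point, Cre+ left of Cre-, and the mean ± SD as a bar beside the points (n = 3 each). Axes do not start at 0, and Cxcl14 shows the widest gap, 128 to 172 units in Cre+ against 77.0 to 90.8 in Cre-.

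The 250 bases before the start of the gene are shown for the called genes that have an entry in the RefSeq promoter table (Cxcl14 and Pf4) and for Ppbp, Cxcl9, Cxcl10 and Ccl20, whose groups also did not overlap. They are printed on the gene's own strand, 5′ to 3′, from assembly GRCm38.p6, with capitals where the letters of a searched motif occur.
Cxcl14 (chr13:56296552-56296801, minus strand): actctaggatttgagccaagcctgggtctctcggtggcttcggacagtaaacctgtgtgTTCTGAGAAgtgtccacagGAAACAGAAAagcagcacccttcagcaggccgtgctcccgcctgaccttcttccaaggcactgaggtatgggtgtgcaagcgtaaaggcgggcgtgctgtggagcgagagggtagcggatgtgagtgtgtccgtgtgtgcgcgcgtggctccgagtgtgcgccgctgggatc
Pf4 (chr5:90772185-90772434, plus strand): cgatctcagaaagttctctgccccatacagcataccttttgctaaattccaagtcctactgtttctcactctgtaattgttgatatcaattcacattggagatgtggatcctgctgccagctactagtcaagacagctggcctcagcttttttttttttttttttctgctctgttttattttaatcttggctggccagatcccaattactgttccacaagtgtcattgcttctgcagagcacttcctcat
Ppbp (chr5:90768268-90768517, plus strand): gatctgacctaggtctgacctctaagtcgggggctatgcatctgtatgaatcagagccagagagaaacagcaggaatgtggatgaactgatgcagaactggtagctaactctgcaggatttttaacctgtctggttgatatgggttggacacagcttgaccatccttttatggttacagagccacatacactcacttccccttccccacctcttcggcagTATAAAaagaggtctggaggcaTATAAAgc
Cxcl9 (chr5:92328080-92328329, minus strand): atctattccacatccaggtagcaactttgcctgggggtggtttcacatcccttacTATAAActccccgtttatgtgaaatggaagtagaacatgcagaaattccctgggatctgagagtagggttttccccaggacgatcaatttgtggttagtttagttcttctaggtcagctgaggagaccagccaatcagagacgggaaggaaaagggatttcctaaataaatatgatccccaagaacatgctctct
Cxcl10 (chr5:92348890-92349139, minus strand): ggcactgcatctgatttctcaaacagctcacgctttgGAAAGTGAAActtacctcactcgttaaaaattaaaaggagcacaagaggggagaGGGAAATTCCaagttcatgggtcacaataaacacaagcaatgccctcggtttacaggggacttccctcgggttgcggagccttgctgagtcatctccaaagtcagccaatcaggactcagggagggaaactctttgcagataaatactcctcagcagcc
Ccl20 (chr1:83116516-83116765, plus strand): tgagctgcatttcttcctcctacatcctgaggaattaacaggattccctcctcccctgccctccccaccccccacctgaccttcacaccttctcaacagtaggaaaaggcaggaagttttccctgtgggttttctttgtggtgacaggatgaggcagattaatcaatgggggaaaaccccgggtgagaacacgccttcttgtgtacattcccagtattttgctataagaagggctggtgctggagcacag
The motifs searched were TATAAA on the gene's strand, and on both strands GGGA and TTCC with any 2 bases between them (a core of NF-kB sites), TTCNNNGAA (STAT sites), GAAA repeated after any 2 bases (a core of interferon response elements) and GTAAACA (FoxO sites). The Cxcl14 window held TTCTGAGAA at 191 to 183 bases and GAAACAGAAA at 172 to 163 bases before the start. Cxcl10 held GAAAGTGAAA at 213 to 204 bases and GGGAAATTCC at 159 to 150 bases. TATAAA stood at 30 to 25 and again at 8 to 3 bases before the start of Ppbp, and at 195 to 190 bases in Cxcl9, and none of the letters searched occurred in the Pf4 or Ccl20 window. Over the 41 members with an entry, TATAAA occurred in 12 (29.3%, against 8.94% of 27025 genes) and the NF-kB letters in 6 (14.6%, against 1.36%): Ccl1, Ccr3, Cxcl1, Cxcl2, Cxcl3 and Cxcl10. The STAT letters occurred in 4 (9.76%, against 8.13%), the interferon element in Cxcl10 and Cxcl14 (4.88%, against 3.46%) and the FoxO letters in 0 (against 3.54%). These are matches of letters in a short window and carry no information on binding.

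Cxcl14 had the largest change of the 39 tested genes. It encodes a CXC ligand that many epithelia make and that attracts monocytes, dendritic cells and natural killer cells. Its probe set read 159, 172 and 128 units on Cre+ arrays 5, 6 and 7, against 80.1, 90.8 and 77.0 units on Cre- arrays 1, 2 and 4. Every Cre+ array lay above every Cre- array, the lowest of them being Cre+ 7. The means were 153 ± 22.5 and 82.6 ± 7.25 units (SD, n = 3 each), and Cxcl14 rose by 0.88 on the log2 scale (SE 0.13, 95% interval 0.59 to 1.18), or 1.85-fold, with a limma adjusted p of 0.0181. Without the pair of arrays that stood apart the rise was 0.99 (adjusted p = 0.00721). Without Cre+ 5 or Cre+ 6 the direction and size held (0.85 and 0.79) and the adjusted p was 0.0824 and 0.0722.

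Pf4 and Ppbp are neighbouring genes whose products, platelet factor 4 and pro-platelet basic protein, are stored in platelet granules, and Pf4 is also made by macrophages. Pf4 read 30.3, 31.0 and 34.2 units in Cre+ mice 5, 6 and 7, against 26.5, 26.3 and 25.7 units in Cre- mice 1, 2 and 4. The groups did not overlap, with means of 31.8 ± 2.07 and 26.2 ± 0.395 units (SD, n = 3 each). Pf4 rose by 0.28 (SE 0.05), or 1.21-fold, with a limma adjusted p of 0.0382. Both genes lie close to the floor of the array, and if a constant of 16 units is taken off every value before the logarithm the Pf4 change becomes 0.63. The call was lost on leaving out any 1 of the 6 arrays, with adjusted p between 0.0538 (without Cre- 1) and 0.130 (without Cre- 2), and without the pair that stood apart (0.23, adjusted p = 0.0532). Ppbp read 25.1, 24.5 and 26.9 units in Cre+ mice, against 23.2, 23.9 and 21.0 units in Cre- mice, a log2 difference of 0.17 (SE 0.06, adjusted p = 0.140, 0.52 with the constant taken off). Its groups also did not overlap, but the difference did not pass. None of 7 tested platelet markers was called (against 4.17% of all tested probe sets), and Gp1ba was below the tested level. The summed intensity of all 8 was 226 to 236 units in Cre+ mice and 213 to 222 in Cre- mice. Of 19 tested macrophage and dendritic cell markers C1qb and C1qc rose, against 2.03% of all tested probe sets. Sums over all 20 were 1910 to 2208 units in Cre+ and 1188 to 2065 in Cre-. The part of either cell type in the Pf4 result was not tested.

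The ligands of Cxcr3, which interferon gamma induces and which attract activated T cells, were Cxcl9, Cxcl10 and Cxcl11. Cxcl9 read 42.3, 44.6 and 84.8 units in Cre+ mice 5, 6 and 7, against 36.8, 29.1 and 33.6 units in Cre- mice 1, 2 and 4. All Cre+ arrays were above all Cre- arrays, but Cre+ 7 stood far above its group mates, and the means were 57.2 ± 23.9 and 33.2 ± 3.88 units (SD, n = 3 each). The log2 difference of 0.72 (SE 0.25, 95% interval 0.13 to 1.30) did not pass (limma adjusted p = 0.163). Without Cre+ 7 alone it was 0.40 (adjusted p = 0.133), without Cre+ 7 and Cre- 1 it was 0.47 and passed (adjusted p = 0.0351), and with 16 units taken off it was 1.14. Cxcl10 read 26.2, 33.1 and 32.7 units in Cre+ mice, against 25.6, 25.1 and 25.8 units in Cre- mice, a difference of 0.26 (SE 0.09, adjusted p = 0.150). Cre+ 5 lay just above the Cre- arrays, and leaving it out gave 0.37 (adjusted p = 0.0446), while 16 units taken off gave 0.59. The Cxcl10 difference did not pass without any other single array (limma adjusted p between 0.195 and 0.338) or without the pair (0.21, adjusted p = 0.288). Cxcl11 was below the tested level, at 21.9 to 22.0 units in Cre+ and 21.2 to 21.6 in Cre-. Their receptor, Cxcr3, read 26.1, 29.5 and 39.7 units in Cre+ mice, against 36.8, 27.2 and 30.1 units in Cre- mice. It was highest on Cre+ 7 and Cre- 1, and the groups overlapped throughout, with a difference of 0.01 (adjusted p = 0.989, 95% interval -0.37 to 0.39), and of -0.04 without the pair.

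Cxcl12 and its receptor Cxcr4, the axis that retains stem cells and lymphocytes in tissues, both overlapped between the groups. Cxcl12 read 55.6, 65.4 and 76.3 units in Cre+ mice 5, 6 and 7, against 73.3, 48.0 and 40.2 units in Cre- mice 1, 2 and 4. Cre- 1 was the array that overlapped. The log2 difference was 0.33 (SE 0.22, limma adjusted p = 0.482), and 0.46 (adjusted p = 0.0903) without the pair that stood apart. Single arrays moved it both ways, to 0.57 without Cre- 1 (adjusted p = 0.0758), 0.14 without Cre- 4 (0.809) and 0.21 without Cre+ 7 (0.712). Cxcr4 read 232, 192 and 200.2 units in Cre+ mice, against 221, 149 and 102 units in Cre- mice, with means of 208 ± 21.0 and 158 ± 60.1 units (SD, n = 3 each). Here too Cre- 1 lay among the Cre+ arrays while Cre- 2 and Cre- 4 lay below them. The difference of 0.47 (SE 0.25, 95% interval -0.11 to 1.05) did not pass (adjusted p = 0.357). It was 0.75 without Cre- 1 (adjusted p = 0.0480) and 0.77 without the pair (adjusted p = 0.04997), but 0.19 without Cre- 4 (adjusted p = 0.661), so the value depended on which Cre- array was left out. Cxcr7, now named Ackr3, an atypical receptor that removes Cxcl12, read 24.9 to 25.9 units in Cre+ and 25.7 to 27.0 in Cre-, a difference of -0.05 (adjusted p = 0.4997).

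The neutrophil attractants Cxcl1, Cxcl2, Cxcl3 and Cxcl5, ligands of Cxcr2, gave no call. Cxcl1 read 45.8, 48.0 and 45.4 units in Cre+ mice, against 46.7, 41.3 and 43.1 units in Cre- mice, a log2 difference of 0.09 (limma adjusted p = 0.615, 95% interval -0.10 to 0.27), and of 0.15 without the pair that stood apart. The groups overlapped through Cre- 1. Cxcl3 differed by -0.02, and Cxcl2, Cxcl5 and their receptors Cxcr1 and Cxcr2 were below the tested level. Of 16 granulocyte and mast cell markers 9 were below that level as well, Ly6g among them. None of the other 7 was called, against 4.17% of all tested probe sets. The mucosal ligands Cxcl15 and Cxcl17 differed by 0.09 and -0.01.

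Ccl24 was the CC ligand that rose. It is eotaxin-2, a macrophage product, and with Ccl11 (eotaxin-1) it attracts eosinophils through Ccr3. In mice Ccl11 is needed for the eosinophils of the growing mammary ducts. Ccl24 read 28.2, 27.5 and 29.5 units in Cre+ mice 5, 6 and 7, against 24.6, 23.9 and 24.7 units in Cre- mice 1, 2 and 4. The groups did not overlap, with means of 28.4 ± 0.978 and 24.4 ± 0.451 units (SD, n = 3 each). Like Pf4, Ccl24 lies close to the floor of the array. Small spreads were also seen in other members there, as in Ccl1 (SD 0.656 units in Cre+ and 0.266 in Cre-). Ccl24 rose by 0.22 (SE 0.04, 95% interval 0.13 to 0.31), or 1.16-fold, with a limma adjusted p of 0.0301. With 16 units taken off the change was 0.56. The call held on leaving out Cre- 1 (adjusted p = 0.0454) and was lost without each of the other 5 arrays (0.0666 to 0.116) and without the pair (0.0595).

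Ccl11 read 30.7, 34.7 and 39.2 units in Cre+ mice, against 30.4, 26.6 and 27.0 units in Cre- mice. The groups touched, since Cre+ 5 lay just above Cre- 1. The log2 difference of 0.31 (SE 0.10, 95% interval 0.09 to 0.54) did not pass (limma adjusted p = 0.121, 0.64 with 16 units taken off). Nor did it pass on leaving out any 1 array (adjusted p between 0.0785 and 0.315) or the pair that stood apart (0.28, adjusted p = 0.0708). The eotaxin receptor Ccr3 was below the tested level, at 21.4 to 21.8 units in Cre+ and 21.1 to 21.3 in Cre-, as were the eosinophil granule genes Prg2 and Epx and Ccl26, the third eotaxin in humans. Siglecf, another eosinophil marker, read 23.7 to 24.0 units in Cre+ and 23.1 to 23.5 in Cre- and was not called. The summed granulocyte and mast cell markers were 354.7 to 354.8 units in Cre+ mice and 351 to 367 in Cre- mice.

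Ccl6, a macrophage chemokine of rodents that acts on Ccr1, read 46.4, 40.0 and 63.5 units in Cre+ mice 5, 6 and 7, against 38.9, 32.5 and 37.7 units in Cre- mice 1, 2 and 4. The groups did not overlap, with Cre+ 7 highest. The log2 difference of 0.44 (SE 0.17, 95% interval 0.05 to 0.82) did not pass (limma adjusted p = 0.195), and it was 0.25 without Cre+ 7, 0.30 without the pair and 0.70 with 16 units taken off. Ccl9, its neighbour on chromosome 11 and also a ligand of Ccr1, read 35.1, 32.6 and 43.8 units in Cre+ mice, against 38.2, 34.0 and 40.8 units in Cre- mice. Those groups overlapped throughout, with a difference of -0.03 (adjusted p = 0.935), and of -0.14 without the pair.

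Ccl20 was the tested chemokine whose Cre+ arrays all lay below the Cre- arrays. Epithelia make it on inflammatory signals, and it attracts dendritic cells and lymphocytes that carry Ccr6. It read 24.7, 28.4 and 27.3 units in Cre+ mice 5, 6 and 7, against 32.3, 30.7 and 32.1 units in Cre- mice 1, 2 and 4. The means were 26.8 ± 1.93 and 31.7 ± 0.875 units (SD, n = 3 each). The log2 difference of -0.24 (SE 0.06, 95% interval -0.38 to -0.10) missed the threshold (limma adjusted p = 0.0711). It passed after quantile normalization (-0.26, adjusted p = 0.0467) and with array weights (-0.26, adjusted p = 0.0380), and was -0.55 with 16 units taken off. It did not pass on leaving out any 1 array (limma adjusted p between 0.102 and 0.188) or the pair that stood apart (-0.24, adjusted p = 0.124). Its receptor Ccr6 read 21.4, 23.1 and 24.8 units in Cre+ mice, against 26.8, 22.7 and 22.4 units in Cre- mice, a difference of -0.05 (adjusted p = 0.785) with overlapping groups, and of -0.02 without the pair.

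The monocyte attractants Ccl2, Ccl7 and Ccl12, ligands of Ccr2 in the mouse, and the related Ccl8 lay close to the floor and differed by 0.01 to 0.02 on the log2 scale, with 95% intervals between -0.13 and 0.15. Ccl3 and Ccl4, the macrophage inflammatory proteins, differed by -0.004 and 0.06, and Ccl1, the ligand of Ccr8, by -0.01. Ccl17, made by dendritic cells for Ccr4, differed by -0.07. The 2 probe sets of Ccl25, a thymic and gut chemokine for Ccr9, differed by -0.01 and -0.08 (limma adjusted p = 0.916 and 0.30). None of these 9 genes had groups that separated.

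Cx3cl1, the membrane-bound fractalkine of epithelium and endothelium, read 76.5, 74.9 and 60.3 units in Cre+ mice 5, 6 and 7, against 46.9, 61.3 and 68.6 units in Cre- mice 1, 2 and 4. The groups overlapped, with Cre+ 7 low in its group and Cre- 4 high in the other. The log2 difference of 0.27 (SE 0.16, 95% interval -0.10 to 0.64) did not pass (limma adjusted p = 0.410). Single arrays moved it both ways, to 0.11 without Cre- 1, the lowest array (adjusted p = 0.703), and 0.39 without Cre- 4 (0.293). Without the pair that stood apart it was 0.22 (0.281). Its receptor Cx3cr1, carried by macrophages and monocytes, read 58.8, 54.0 and 60.5 units in Cre+ mice, against 58.6, 56.2 and 40.8 units in Cre- mice, a difference of 0.17 (adjusted p = 0.586, 0.24 without the pair). Those groups overlapped on all but Cre- 4. Xcl1, a lymphocyte product, differed by 0.04, and its receptor Xcr1 was below the tested level.

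No receptor was called among the 10 tested, against 4.17% of all tested probe sets, a share at which 10 genes can hold none. None had groups that did not overlap, against 25.7% of all tested probe sets. None had an unadjusted limma p under 0.05 either, a level that 20% of all tested probe sets reached. Their log2 changes ran from -0.28 (Cxcr5) to 0.47 (Cxcr4), with a median of -0.05, against 0.02 over the 29 tested ligands. Ccr10, the receptor for Ccl28, differed by -0.06, and Darc, now Ackr1, an atypical receptor that carries chemokines on red cells and endothelium, by 0.05.

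**Figure D3:**
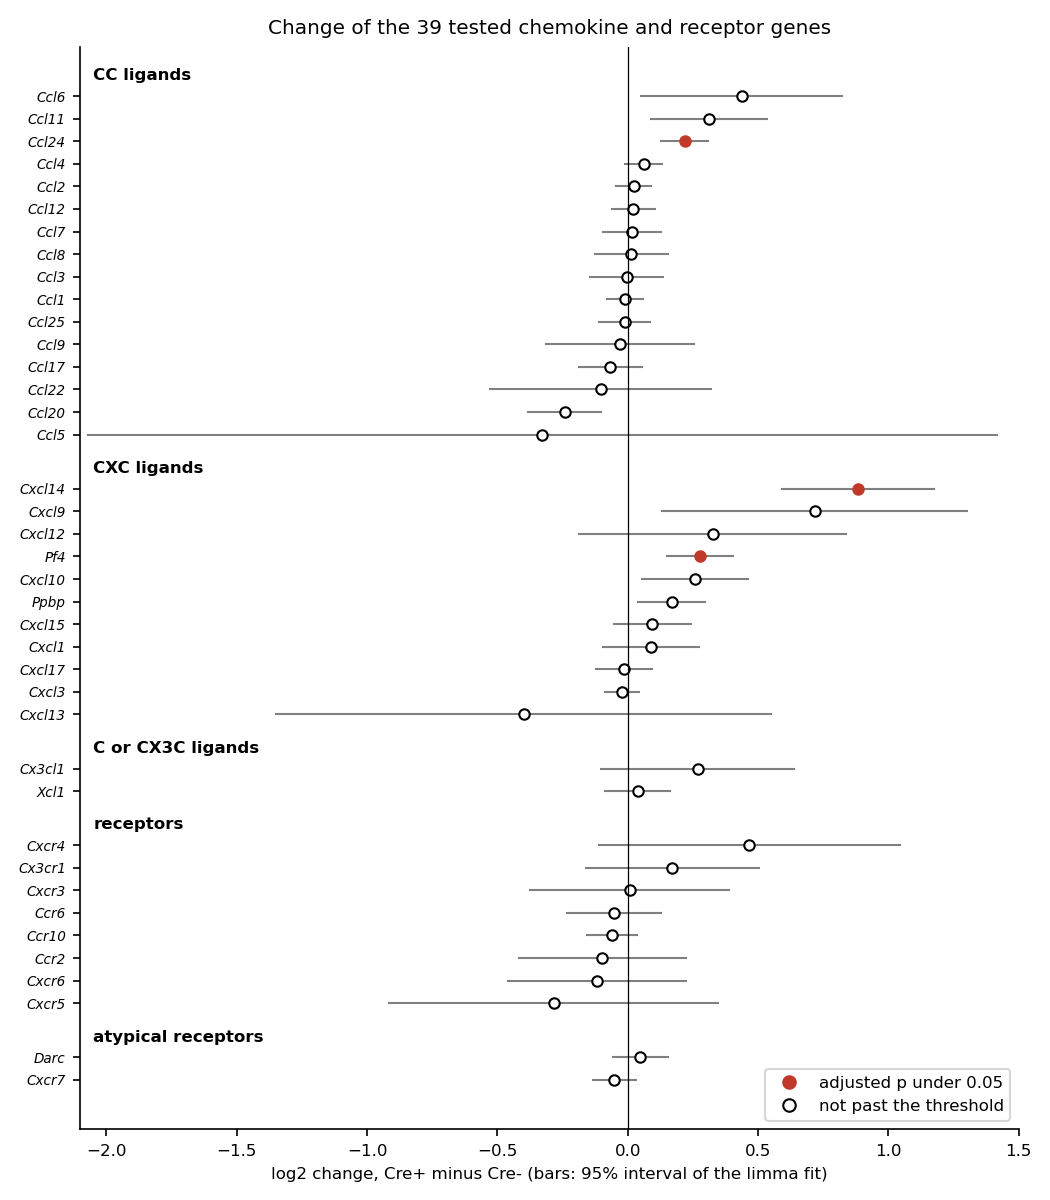
Log2 change, Cre+ minus Cre-, of the 39 tested genes by class, with the 95% interval of the limma fit as a bar. Filled red points mark the 3 genes past the adjusted threshold, Cxcl14, Ccl24 and Pf4, and the intervals are widest for Ccl5 and Cxcl13.

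Several members varied more between mice of one genotype than between genotypes. Ccl5, which T and natural killer cells release, read 53.8, 76.2 and 289.9 units in Cre+ mice 5, 6 and 7, against 364, 84.7 and 76.3 units in Cre- mice 1, 2 and 4. A single array of each group stood far above the rest, Cre+ 7 in one and Cre- 1 in the other. The log2 difference of -0.33 had an SE of 0.75 (limma adjusted p = 0.869, 95% interval -2.07 to 1.41), and its sign turned without Cre- 1 (0.40) or Cre+ 5 (0.16). Leaving out 1 array moved it between -1.05 (without Cre+ 7) and 0.40, and without both of the high arrays it was again -0.33 (adjusted p = 0.309). Cxcl13, which organises B cell follicles, read 32.6, 43.7 and 58.0 units in Cre+ mice, against 109, 53.1 and 32.7 units in Cre- mice. Its receptor Cxcr5 read 21.2, 23.7 and 25.8 units in Cre+ mice, against 47.5, 22.5 and 21.9 units in Cre- mice. Both were highest on Cre- 1, and in Cre+ mice on Cre+ 7. Their differences of -0.40 and -0.28 (adjusted p = 0.666 and 0.639) became -0.14 and 0.01 without the pair.

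The same order was seen in some other genes of lymphoid and monocytic cells, but not in all. Cxcr3 and Cx3cr1 were highest on Cre+ 7, and Xcl1, at 22.7 to 26.1 units, was highest on Cre+ 6. Ccl22, a dendritic cell ligand of Ccr4, read 22.3, 26.2 and 28.1 units in Cre+ mice, against 37.6, 23.0 and 23.6 units in Cre- mice. Ccr2, the monocyte receptor for Ccl2, read 24.2, 24.3 and 26.8 units in Cre+ mice, against 34.4, 23.7 and 23.7 units in Cre- mice. Cxcr6, found on memory T and natural killer T cells, read 24.3, 27.8 and 30.9 units in Cre+ mice, against 37.8, 26.3 and 26.7 units in Cre- mice. In all 3 Cre- 1 was the highest array and Cre+ 7 the highest Cre+ array, and their differences of -0.10, -0.10 and -0.12 became 0.05, 0.04 and -0.03 without the pair. In all, 11 of the 39 genes were highest on Cre- 1, against 14.8% of all tested probe sets. With Ccl5, Cxcl13, Cxcr5, Ccr6 and Cxcr7 the genes that were also highest in Cre+ mice on Cre+ 7 numbered 8 (20.5%), against 7.65% of all tested probe sets, and 5 of the 10 tested receptors.

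Lymphocyte markers moved in the same way. The mean log2 level of the 19 tested markers was 4.74, 5.22 and 5.84 on Cre+ arrays 5, 6 and 7, against 6.41, 5.16 and 5.01 on Cre- arrays 1, 2 and 4. None of the 19 was called between the groups (against 4.17% of all tested probe sets), and Ncr1 was below the tested level. Summed endothelial markers and summed macrophage and dendritic cell markers were also highest on Cre+ 7 and Cre- 1. The part of lymphocyte, endothelial or macrophage content in these 8 genes was not tested.

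**Figure D4:**
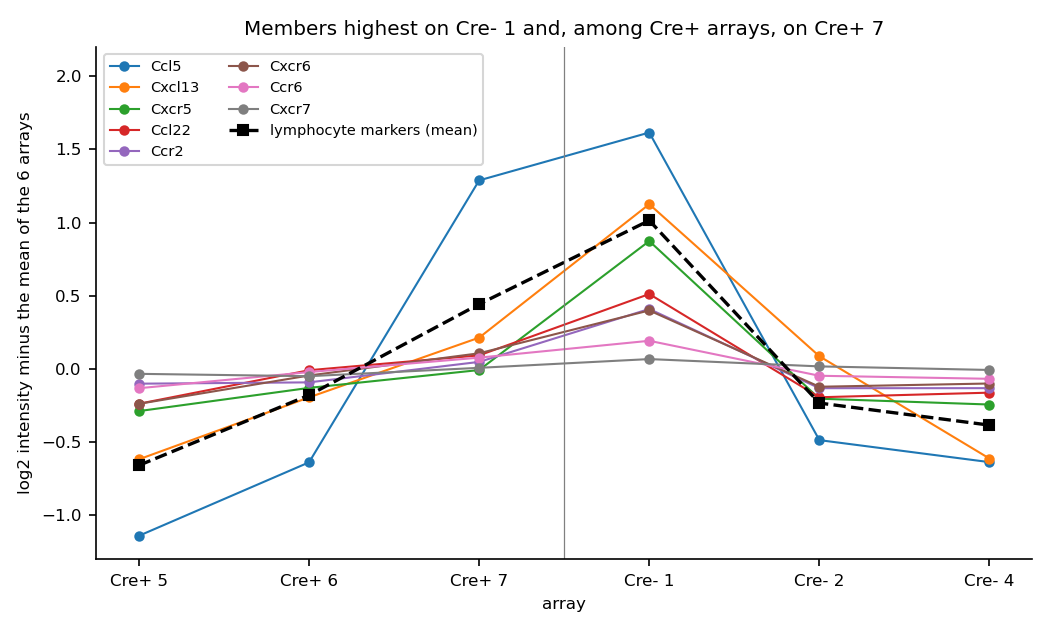
Log2 intensity minus the mean of the 6 arrays, by array, for the 8 genes highest on Cre- 1 and, within Cre+, on Cre+ 7, with the mean of the lymphocyte markers as a dashed line. Ccl5, Cxcl13 and Cxcr5 rise most on Cre- 1, Ccl5 also stands high on Cre+ 7, and Cxcr7 hardly varies.

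Many chemokine genes lie in clusters that arose by gene duplication. By the RefSeq table, chromosome 5 holds 13 members, 9 of them tested, and 5 of the 8 genes with all Cre+ arrays above, namely Ppbp, Pf4, Cxcl9, Cxcl10 and Ccl24. These 5 do not share a single cluster. Ppbp and Pf4 lie next to each other, followed by Cxcl3, Cxcl15 and Cxcl1, which differed by -0.02, 0.09 and 0.09. Between Cxcl2, the last member of that run, and Cxcl9 lie 16 other coding genes. Between Cxcl13 and Ccl26, the neighbour of Ccl24, lie 430. Chromosome 11 holds 12 members, all tested, of which Ccl11 and Ccl6 were above in Cre+. Ccl11 stands between Ccl7 and Ccl12, whose differences were 0.02 and 0.02. Probe sets for genes of one cluster can share sequence, and probe sets that name several genes were left out.

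Genes around the chemokine system, other leukocyte attractants and their receptors among them, were read from 4 lists. In these, 6 of 88 tested genes were called (6.82%, against 4.17% of all tested probe sets). Of the 6, 2 rose (against 2.03%) and 4 fell (against 2.14%). In receptor signalling, 28 of 30 genes were tested, 1 rose, 1 fell and the median log2 change was -0.08. Rgs16 and Rgs2 speed the shut-off of G protein signals from chemokine and other receptors. Rgs16 read 152, 200.3 and 215 units in Cre+ mice 5, 6 and 7, against 409, 365 and 455 units in Cre- mice 1, 2 and 4, and fell by 1.13 (SE 0.14, limma adjusted p = 0.0130). Rgs2 read 44.9, 48.2 and 45.4 units in Cre+ mice, against 36.8, 29.8 and 29.3 units in Cre- mice, and rose by 0.54 (SE 0.10, adjusted p = 0.0321). The groups did not overlap in either gene, and the 2 regulators moved in opposite directions. Rgs16 lost its call without Cre+ 6 (adjusted p = 0.0643), and Rgs2 without any array but Cre- 1 (0.0746 to 0.125). Arrb1, an arrestin that ends receptor signals, differed by 0.44 and did not pass (adjusted p = 0.139).

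In the list of scavenging, cleavage and presentation, 18 genes were tested, 1 rose, 1 fell and the median was -0.03. Cmtm6, of the chemokine-like factor family but known for stabilising the immune checkpoint ligand PD-L1, read 338, 345 and 329 units in Cre+ mice, against 751, 622 and 717 units in Cre- mice. It fell by 1.04 (SE 0.09, limma adjusted p = 0.00318), with no overlap, and passed on leaving out any 1 array. Mmp2, a matrix protease that also cleaves Cxcl12 and Ccl7, read 167, 148 and 139 units in Cre+ mice, against 86.8, 82.5 and 66.3 units in Cre- mice, and rose by 0.95 (SE 0.13, adjusted p = 0.0134). It lost its call without Cre+ 5 (0.0680) or Cre+ 6 (0.0703). Dpp4, the peptidase that trims Cxcl9, Cxcl10, Cxcl12 and Ccl5, read 41.8, 36.9 and 47.2 units in Cre+ mice, against 85.6, 51.6 and 64.3 units in Cre- mice, a difference of -0.65 that did not pass (adjusted p = 0.0964). In all 3 genes the groups did not overlap.

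Of 28 tested inducers of chemokine genes, 2 fell, none rose and the median was -0.06. Both sense bacterial products: Tlr2, a Toll-like receptor, and Cd14, its partner in binding them. Tlr2 read 91.6, 75.5 and 84.8 units in Cre+ mice, against 119, 120.3 and 123 units in Cre- mice, and fell by 0.53 (SE 0.09, limma adjusted p = 0.0279). Cd14 read 47.2, 47.0 and 49.3 units in Cre+ mice, against 64.0, 84.4 and 109 units in Cre- mice, and fell by 0.81 (SE 0.18, adjusted p = 0.0493). Neither gene's groups overlapped, and both calls were lost without any array but Cre- 1 (0.0656 to 0.105 for Tlr2, 0.0763 to 0.155 for Cd14). Stat3, which carries cytokine signals, differed by -0.32 (adjusted p = 0.142). None of 14 other attractants and receptors was called, against 4.17% of all tested probe sets. Lgals3 (0.51, adjusted p = 0.0817), Il34 (0.19, 0.128) and Mif (0.30, 0.141) had the smallest p of that list, whose median was 0.13.

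**Figure D5:**
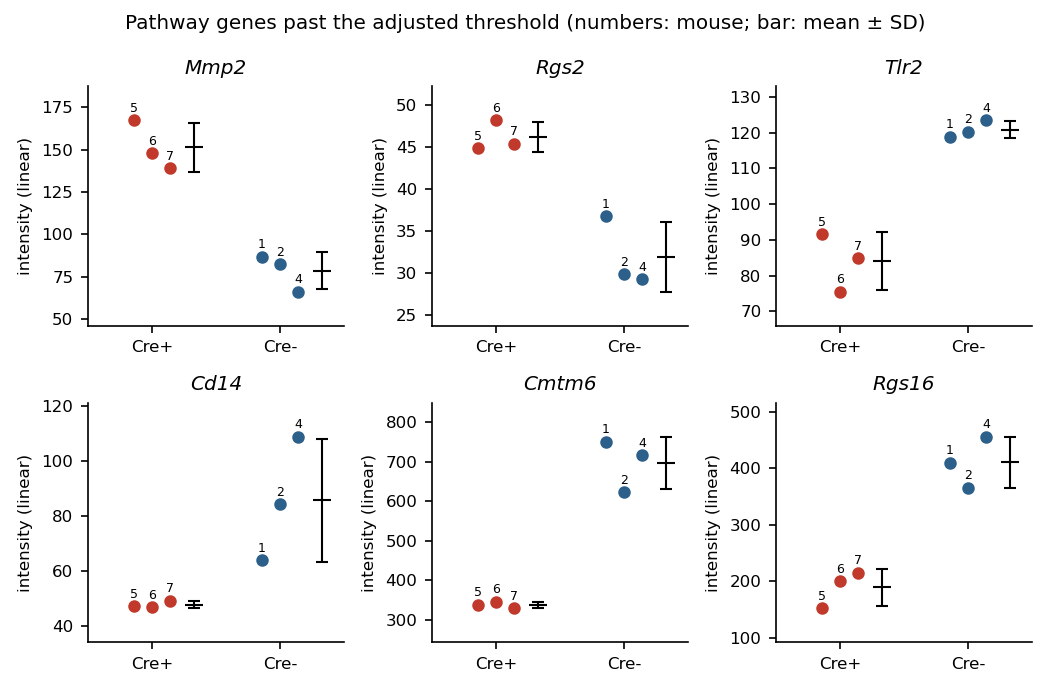
Intensity (linear units) of the 6 pathway genes past the adjusted threshold, with each mouse as a numbered point, Cre+ left of Cre-, and the mean ± SD as a bar beside the points (n = 3 each). Axes do not start at 0, Mmp2 and Rgs2 are higher in Cre+, and Tlr2, Cd14, Cmtm6 and Rgs16 are lower.

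Other cell markers also moved with genotype beside these results. Over all tested probe sets 2.03% rose and 2.14% fell. Of 10 basal myoepithelial markers 4 rose, with sums of 4995 to 5291 units in Cre+ mice and 2730 to 4067 in Cre- mice. Of 12 fibroblast markers Mfap5 and Fbln2 rose, with sums of 1279 to 1658 units in Cre+ and 633 to 1320 in Cre-. Of 10 alveolar milk markers 9 fell, with sums of 12683 to 15317 units in Cre+ and 23197 to 26754 in Cre-. Of 10 luminal epithelial markers 1 fell, with a median log2 change of -0.37. None of 12 endothelial and none of 10 hormone-sensing luminal markers was called. Over all tested probe sets 4.17% were called, a share at which lists this short can hold none. The part of basal, stromal and alveolar content in the levels of Cxcl14, Mmp2, Rgs16 and Cmtm6 was not tested.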

How the data were processed

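RNA of mammary epithelial cells from 6 mice, 3 IRfl/fl Cre+ and 3 IRfl/fl Cre-, had been read on 1 array each. Groups and mouse numbers come from the sample titles, and each mouse is 1 replicate. Per the labels, the authors obtained each deposited intensity as an RMA value (robust multi-array average) of the core exons in Expression Console. The sources used here give no software version, genome build or annotation. Deposited intensities were linear, from 18.7 to 10919, and identical in both tables, so log2 was taken first (the design had assumed log2 values). No source states whether a constant had been added, and an alternative took off 16. The deposited p-value and ratio (Cre+ over Cre-) of each probe set are the authors' own, per the file headers, and only the p-values serve, as an alternative. The table's 4 columns of group means and errors were not used.

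Of 22984 probe sets that name 1 gene, the 16921 whose mean log2 level reached the 30th percentile of all probe sets entered a fit of genotype by limma 3.58.1 (lmFit, then eBayes with trend, two-sided; R 4.3.3). P-values were adjusted by the Benjamini-Hochberg method over all tested probe sets, with a threshold of 0.05. A log2 change is Cre+ minus Cre-, and errors are its standard error (SE) or the SD over 3 mice. The number of arrays limits the precision. The script was tested on simulated data.

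The members, the 4 pathway lists and the 10 cell marker lists were chosen with earlier results of these data known, so lists are given by counts and medians. The rule gave per-array values to members past the threshold, members with separated groups and a log2 change of at least 0.5 and the 5 members with the highest mean, and for pathway lists named the called genes and the 3 with the smallest p. Per-array values given for other members were chosen after they were seen. 1 receptor gene is not reported here. Promoter windows are from RefSeq (GRCm38.p6), with an entry for 41 of 53 members. Alternatives were no filter, a 50th percentile filter, the constant taken off, median centring, quantile normalization, no trend, robust variances, array weights, the deposited p-values and leaving out each array or the pair Cre+ 7 and Cre- 1.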

Additional observations from a re-analysis of the deposited data

How the results depend on the processing

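The count of 3 called chemokine genes was 1 (Cxcl14) with the 50th percentile filter, which leaves Ccl24 and Pf4 untested, and 1 (Cxcl14) without the intensity trend. With the authors' deposited p-values, adjusted in the same way, it was 0, with 4 of the 39 genes at an unadjusted p under 0.05. Leaving out 1 array gave 0 to 3 called genes: 0 without Cre+ 6 (limma, 8 at an unadjusted p under 0.05) and 3 without Cre- 1, where Cxcr4 replaced Pf4. No filter gave 2 called genes, quantile normalization and array weights gave 4 (with Ccl20), and the pair left out gave 3 (Cxcl14, Cxcl9 and Cxcr4). The 6 called pathway genes became 0 with the deposited p-values (15 at an unadjusted p under 0.05) and 1 to 8 on leaving out 1 array. Over all tested probe sets the 706 calls became 1437 with array weights, 34 with the deposited p-values and 46 to 781 on leaving out 1 array. The log2 change of Ccl5 ran from -1.05 to 0.40 when 1 array was left out. Of 205 alternative values of 14 single genes, 176 kept direction and side of the threshold, 21 lost their call, 6 gained one and 2 (both Ccl5) turned sign. Only Cxcl14, Ccl24 and Pf4 had a call to lose, so all 21 losses were theirs, most of them in Ccl24 and Pf4. Causes of these differences were not tested. Taking 16 units off every value kept the 3 calls and enlarged the changes of Ccl6, Ccl11, Ccl20, Ccl24, Cxcl9, Cxcl10, Pf4 and Ppbp by more than 1.5 times. No paired analysis was possible because the Cre+ and Cre- mice share no replicate number. On signal, 14 members lay too near the floor of the arrays to be tested.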

Other observations

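Chemokine ligand probe sets that name several genes belong to no comparison above. The 4 probe sets of Ccl21, a lymph node chemokine for naive T cells, read 29.1 to 29.3, 47.5 to 47.8 and 134 to 134.1 units on Cre+ arrays 5, 6 and 7, against 281 to 284, 63.7 to 64.0 and 35.2 to 35.4 units on Cre- arrays 1, 2 and 4. Cre- 1 was highest and Cre+ 7 second. The 5 probe sets of Ccl19, made with it in lymphoid stroma, read 33.7 to 36.5, 41.0 to 44.2 and 45.3 to 45.9 units on the same Cre+ arrays, against 68.9 to 69.6, 45.1 to 47.3 and 37.1 to 39.6 units on the Cre- arrays. The probe set led by Ccl27a read 53.4 to 56.0 units in Cre+ and 49.9 to 57.3 in Cre-, and that led by Cxcl16 read 56.7 to 68.0 units in Cre+ and 62.8 to 69.7 in Cre-. In both of these the groups overlapped.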
